A study of Mus musculus with 6 samples.

Results

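Immediate early transcription factors were measured in gastrocnemius, the large calf muscle, of mice fed a high or a normal phosphate diet. The members were taken by gene symbol from the deposited count table: Fos, Fosb, Jun, Junb, Egr1, Egr2, Egr3, Ier2, Nr4a1 and Atf3, which are 10 of 47967 genes listed. The 3 high phosphate libraries (HP 1 to 3) came from male C57BL/6 mice that received 2.0% inorganic phosphate (2.3% in total), and the 3 normal phosphate libraries (NP 1 to 3) from male C57BL/6 mice that received 0.6% inorganic phosphate (0.9% in total). Both diets lasted 12 weeks, the mice were 20 to 24 weeks old, and the labels give both diets the same calcium, magnesium, sodium and potassium. Whether the libraries are from separate mice is not in the labels, so the p-values speak only of the spread among these libraries, and that spread may be technical.

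Immediate early genes are switched on within minutes of a stimulus, without new protein synthesis, by kinase pathways that act on factors such as SRF with its ELK partners, CREB and MEF2 already sitting at their promoters. Their transcripts are short-lived. Fos and Jun family proteins pair to form AP-1, the EGR proteins are zinc finger factors, and NR4A1 is an orphan nuclear receptor. In skeletal muscle such genes respond to contraction, to nerve activity, to stretch and to adrenergic signals.

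The libraries held 21856006 to 27474251 gene counts, so that 1 CPM, the count scaled to a fixed library size, stood for 21.9 to 27.5 counts. Levels below are CPM scaled by the trimmed mean of M values (TMM), which sets a typical gene equal between libraries, and each log2 fold change sets high over normal phosphate and is given ± SE. The test was edgeR's quasi-likelihood test, adjusted by Benjamini-Hochberg across the 15347 genes tested, and 0.05 was the limit for a call. The skeletal fibre markers were the most abundant of the marker lists, at a sum of 151412 to 189905 CPM on the high and 56632 to 82463 CPM on the normal phosphate diet. The 10 most abundant genes took 21.6 to 24.0% of the counts on the high and 13.0 to 16.2% on the normal phosphate diet. When only library size was used for scaling, the median over all genes was -0.49 on the log2 scale, against -0.016 with TMM. That also changed the split of the calls to 878 higher and 7886 lower, against 3528 higher and 4035 lower, so directions are relative to a typical gene. NP 2 stood apart from the rest of its diet on the first principal component, at -75.4 against -36.5 and -43.8.

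The promoters of the members are one stretch on which their activators act. Of the 10 members 7 have an entry in the RefSeq promoter table (GRCm38.p6), which spans 250 bases before to 50 bases after the transcript start. Those of Nr4a1, which was higher on the high phosphate diet, and of Fosb and Junb, which were lower, are shown because these members moved in opposite directions. The capitals mark TGACG on either strand, a core part of the cAMP response element to which CREB binds. The windows lie at chr15:101266596-101266895 on the plus strand (Nr4a1), chr7:19309996-19310295 on the minus strand (Fosb) and chr8:84978699-84978998 on the minus strand (Junb).
Nr4a1: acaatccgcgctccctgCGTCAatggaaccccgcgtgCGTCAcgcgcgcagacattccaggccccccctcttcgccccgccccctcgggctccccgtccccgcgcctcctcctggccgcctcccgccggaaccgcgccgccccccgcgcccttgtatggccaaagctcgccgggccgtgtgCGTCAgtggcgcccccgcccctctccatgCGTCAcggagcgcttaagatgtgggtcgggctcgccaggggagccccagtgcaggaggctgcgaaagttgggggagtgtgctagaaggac
Fosb: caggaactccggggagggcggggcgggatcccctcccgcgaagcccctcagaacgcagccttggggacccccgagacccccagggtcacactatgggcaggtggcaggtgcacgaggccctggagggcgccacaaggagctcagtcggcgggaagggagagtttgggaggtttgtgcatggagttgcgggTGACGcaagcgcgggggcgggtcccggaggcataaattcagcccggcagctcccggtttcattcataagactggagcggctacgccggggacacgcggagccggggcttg
Junb: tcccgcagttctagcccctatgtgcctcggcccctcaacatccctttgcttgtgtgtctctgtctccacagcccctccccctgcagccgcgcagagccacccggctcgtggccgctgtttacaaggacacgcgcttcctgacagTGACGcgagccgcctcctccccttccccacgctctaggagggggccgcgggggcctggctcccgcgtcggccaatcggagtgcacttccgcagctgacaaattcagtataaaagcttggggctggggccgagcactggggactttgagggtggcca
The transcribed regions in GRCm38 are chr15:101254269-101274795 for Nr4a1, chr7:19302696-19310051 for Fosb, chr8:84974484-84978718 for Junb, chr4:95049034-95052222 for Jun and chr12:85473890-85477273 for Fos. They are chr14:70077203-70082614 for Egr3, chr10:67535475-67542188 for Egr2, chr8:84661331-84662852 for Ier2 and chr1:191170296-191218039 for Atf3. Nr4a1 held 4 copies in this window, all on the reverse strand (read as CGTCA), and Fosb and Junb 1 copy each. In all, 6 of the 7 members with an entry held the motif (Atf3, Egr2, Fos, Fosb, Junb and Nr4a1), against 23.0% of the 27025 genes in the table. Among the called members, Nr4a1 (higher) and Fosb and Junb (lower) held it, and Jun (higher) did not. Egr1, Egr3 and Ier2, all lower, have no entry. The site of the EGR factors, GCGNGGGCG on either strand, was found in Fosb and Nr4a1 and in 6.27% of all genes. The CArG box of the serum response element was found in the window of Egr2 and in 1.81% of all genes, and the MEF2 site in those of Atf3 and Jun and in 3.70%. The full element TGACGTCA and the AP-1 site TGANTCA, searched on both strands, were found in 0 of the 7 members and in 2.03% and 8.97% of all genes. TGACG is contained in TGACGTCA, so the counts of these motifs overlap. A match is a description of these letters and not of binding. Sites outside this window were not searched, so a missing match does not mean that a gene lacks the element.

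On the high phosphate diet 5 members were lower (Egr3, Fosb, Egr1, Ier2 and Junb) and 2 were higher (Nr4a1 and Jun), and 3 were not called (Egr2, Atf3 and Fos). That is 7 of 10, where 49.3% of all genes tested were called, 26.3% as lower and 23.0% as higher. The 7 called members were also those whose libraries did not overlap between the diets, 2 with high phosphate above and 5 with it below. Over all genes tested 62.4% did not overlap, 30.3% with high phosphate above and 32.1% with it below. The median log2 fold change of the 10 members was -0.58, against -0.016 over all genes tested, and the members ran from -3.34 to 1.79. They therefore did not move as one block, and the median hides changes in opposite directions. All 10 passed the filter on low counts, but Egr3 reached its level (0.433 CPM by library size) in 0 of 3 high and 3 of 3 normal phosphate libraries.

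**Figure D1:**
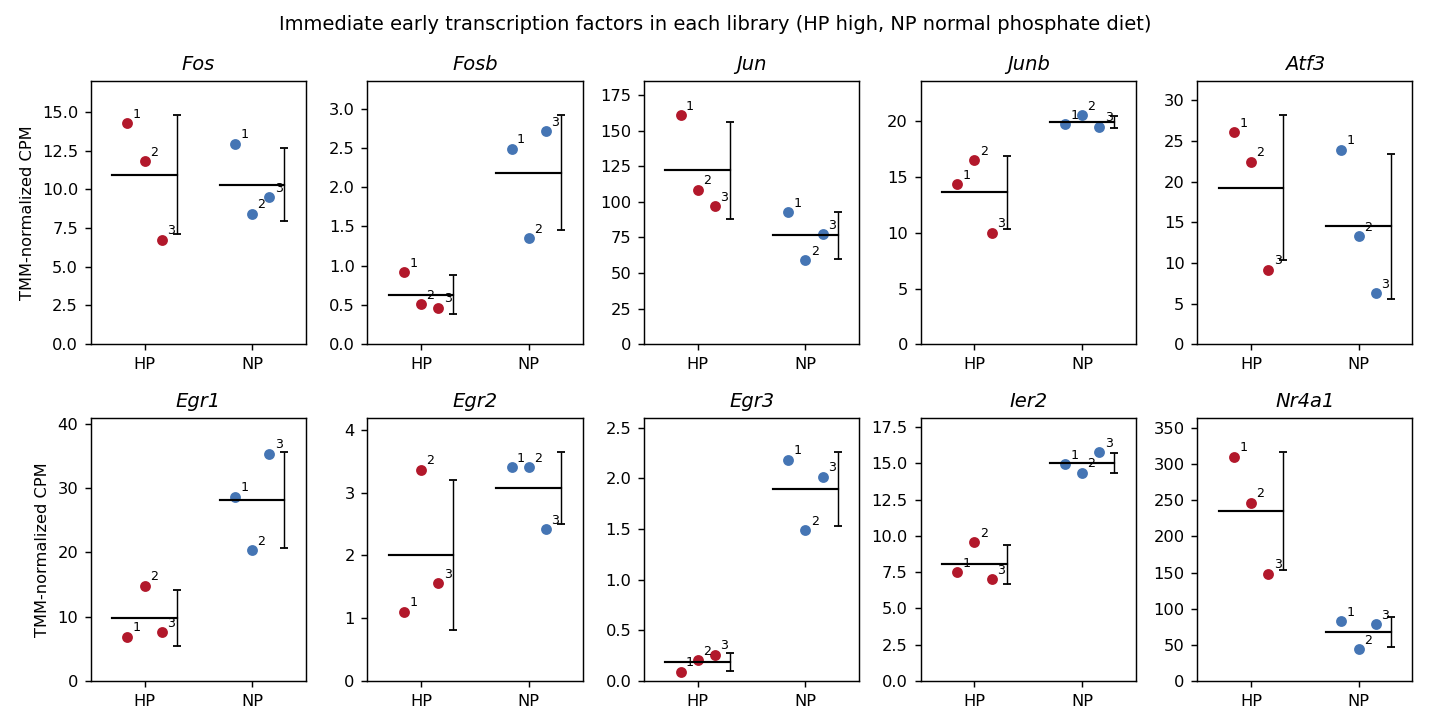
TMM-normalized CPM (vertical axis, from 0, with its own range in each panel) of the 10 members in every library, with high phosphate (HP, red) left of normal phosphate (NP, blue). Numbers mark replicates, black lines are means and bars are SD (n = 3 libraries per diet). The diets do not overlap for Egr1, Egr3, Fosb, Ier2 and Junb, which are lower on high phosphate, nor for Nr4a1 and Jun, which are higher.

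Of the EGR zinc finger factors Egr3 and Egr1 fell on the high phosphate diet and Egr2 was not called, with Egr3 changed by the widest margin of all members. Egr3, which in mice is needed for muscle spindles to form, had 0.0916, 0.204 and 0.260 CPM in HP 1, 2 and 3, against 2.18, 1.49 and 2.01 CPM in NP 1, 2 and 3. The diets were far from overlapping, and the high phosphate values rest on 2, 4 and 5 counts, 11 in all, against 57, 42 and 55 counts, 154 in all. Its mean was 0.185 ± 0.0855 CPM on the high and 1.90 ± 0.363 CPM on the normal phosphate diet (SD, n = 3 each). The log2 fold change was -3.34 ± 0.39 (edgeR adjusted p = 0.000505). Egr3 kept its call under all 16 alternatives, with values from -3.80 with library size alone to -1.32 on the log2(FPKM + 1) scale, where changes of low genes come out smaller.

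Egr1, the most abundant EGR gene here and a target of SRF and ELK factors, had 6.87, 14.8 and 7.58 CPM in HP 1, 2 and 3, against 28.6, 20.3 and 35.3 CPM in NP 1, 2 and 3. HP 2 was the highest of its diet and NP 2 the lowest of its own, and the diets still did not overlap. The means were 9.74 ± 4.37 CPM on the high and 28.1 ± 7.49 CPM on the normal phosphate diet (SD, n = 3 each), which is -1.53 ± 0.32 on the log2 scale (edgeR adjusted p = 0.00657). With no filter on low counts the value was -1.52 and the call was lost (edgeR adjusted p = 0.0604). Egr2, which drives myelination in Schwann cells, had 1.10, 3.36 and 1.56 CPM in HP 1, 2 and 3, against 3.41, 3.40 and 2.42 CPM in NP 1, 2 and 3. HP 2 lay among the normal phosphate libraries, and HP 1 and HP 3 lay below all of them. Egr2 was not called (-0.62 ± 0.38, 95% interval -1.48 to 0.23, edgeR adjusted p = 0.198). Without HP 2 it was called as lower (-1.20, edgeR adjusted p = 0.0170), and so it was with library size alone (-1.09, edgeR adjusted p = 0.0481).

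The corepressors of the EGR proteins were lower too, and a link to the fall of Egr1 and Egr3 was not tested. Nab2 was at 3.39 ± 0.881 CPM on the high and 7.51 ± 1.69 CPM on the normal phosphate diet (-1.14 ± 0.23, edgeR adjusted p = 0.00406). Nab1 was at 22.3 ± 2.31 and 35.5 ± 0.470 CPM on the high and the normal phosphate diet (-0.67 ± 0.11, edgeR adjusted p = 0.00136). Egr4, the remaining EGR gene, did not pass the filter on low counts.

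Of the Fos genes among the members, Fosb fell and Fos was not called, and the difference between them was not tested. Fosb, which forms AP-1 with Jun proteins and whose shortened form builds up with repeated stimulation in neurons, had 0.916, 0.510 and 0.467 CPM in HP 1, 2 and 3, against 2.49, 1.35 and 2.71 CPM in NP 1, 2 and 3. The values of the high phosphate libraries stand on 20, 10 and 9 counts, those of the normal phosphate libraries on 65, 38 and 74, and NP 2 was the lowest of its diet. Fosb fell by 1.77 ± 0.38 on the log2 scale (edgeR adjusted p = 0.00491), to 0.631 ± 0.248 CPM against 2.18 ± 0.732 CPM on the normal phosphate diet (SD, n = 3 each). As log2(FPKM + 1) it missed the threshold (-0.53, limma adjusted p = 0.0902), while with a pseudocount of 0.1 it was (-1.78, limma adjusted p = 0.0277).

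Fos, the founding member of AP-1, had 14.3, 11.8 and 6.75 CPM in HP 1, 2 and 3, against 12.9, 8.43 and 9.48 CPM in NP 1, 2 and 3. HP 1 was the highest and HP 3 the lowest of the 6 libraries, so that the normal phosphate libraries lay inside the range of the high phosphate ones. The means were 10.9 ± 3.83 and 10.3 ± 2.36 CPM on the high and the normal phosphate diet (SD, n = 3 each). Fos was not called (0.093 ± 0.27, 95% interval -0.53 to 0.71, edgeR adjusted p = 0.795). Its sign turned with library size alone (-0.38), on both FPKM scales, without HP 1 (-0.13) and without NP 2 (-0.033). Fosl1, another Fos relative, named after its value was seen, was at 1.27 ± 0.411 CPM on the high and 2.02 ± 0.127 CPM on the normal phosphate diet and was not called (-0.66 ± 0.28, edgeR adjusted p = 0.0713), although its libraries did not overlap. It was called as lower under library size scaling (-1.15), on both FPKM scales (-0.51 and -1.13) and without HP 1 (-0.96, edgeR adjusted p = 0.0279). Fosl2, a relative that in many tissues is present before stimulation, was lower, at 27.8 ± 3.26 CPM on the high and 39.6 ± 2.48 CPM on the normal phosphate diet (-0.51 ± 0.11, edgeR adjusted p = 0.00600).

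Of the Jun genes, Jun rose and Junb fell with TMM scaling. Jun, the most active partner of Fos proteins, had 161, 108 and 96.9 CPM in HP 1, 2 and 3, against 92.8, 59.2 and 77.2 CPM in NP 1, 2 and 3. HP 1 was the highest, and HP 3 lay just above NP 1. Jun averaged 122 ± 34.0 CPM on the high and 76.4 ± 16.8 CPM on the normal phosphate diet (SD, n = 3 each), which is 0.68 ± 0.22 on the log2 scale (edgeR adjusted p = 0.0318). The call was lost with library size alone (0.20, edgeR adjusted p = 0.323), where the libraries of the diets overlapped. It was also lost with FPKM and a pseudocount of 1 (0.53, limma adjusted p = 0.0574) or 0.1 (0.54, limma adjusted p = 0.0511), and without HP 1 (0.44, edgeR adjusted p = 0.0962), NP 2 (0.52, edgeR adjusted p = 0.105) or NP 3 (0.68, edgeR adjusted p = 0.0653).

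Junb, which in mouse muscle has been linked to the upkeep of fibre size, had 14.3, 16.5 and 10.02 CPM in HP 1, 2 and 3, against 19.7, 20.5 and 19.5 CPM in NP 1, 2 and 3. The normal phosphate libraries were nearly equal, and all high phosphate libraries lay below them. Junb fell by 0.55 ± 0.17 on the log2 scale (edgeR adjusted p = 0.0226), to 13.6 ± 3.30 CPM against 19.9 ± 0.546 CPM on the normal phosphate diet (SD, n = 3 each). The call was lost without HP 1 (-0.57, edgeR adjusted p = 0.0521), HP 3 (-0.36, edgeR adjusted p = 0.0593) or NP 2 (-0.53, edgeR adjusted p = 0.0511). It was also lost with FPKM and a pseudocount of 1 (-0.91, limma adjusted p = 0.112) or 0.1 (-1.05, limma adjusted p = 0.102), although the fall was larger there. Jund, the third Jun gene, which is expressed at a steady level in many cells, was lower as well, at 16.3 ± 1.19 CPM on the high and 22.9 ± 2.19 CPM on the normal phosphate diet (-0.49 ± 0.11, edgeR adjusted p = 0.00733). The exons of Jun overlap those of the antisense gene Junos, and those of Junb overlap those of Prdx2 on the opposite strand, and the strand setting of the counting is not given in the sources used here. Junos was at 7.04 ± 1.95 and 4.57 ± 1.22 CPM on the high and the normal phosphate diet (0.62 ± 0.26, edgeR adjusted p = 0.0717). Prdx2 was at 129 ± 7.80 and 127 ± 17.0 CPM on the high and the normal phosphate diet. Its log2 fold change was 0.016 ± 0.13 (edgeR adjusted p = 0.929).

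Nr4a1 rose on the high phosphate diet by more than any other member. It encodes an orphan nuclear receptor that in rodent muscle is induced by adrenergic signals and raises genes of glucose use. Nr4a1 had 311, 247 and 148 CPM in HP 1, 2 and 3, against 82.4, 44.1 and 78.2 CPM in NP 1, 2 and 3. The lowest high phosphate library, HP 3, was well above the highest normal phosphate library, NP 1. The means were 235 ± 81.6 CPM on the high and 68.2 ± 21.0 CPM on the normal phosphate diet (SD, n = 3 each), which is 1.79 ± 0.32 on the log2 scale (edgeR adjusted p = 0.00313). Under the 16 alternatives it ran from 1.28 to 2.04 and kept its call in all of them. Its relatives were not called: Nr4a3 was at 31.4 ± 14.1 and 18.8 ± 15.7 CPM on the high and the normal phosphate diet (0.74 ± 0.63, edgeR adjusted p = 0.367), and Nr4a2 at 1.96 ± 0.669 and 2.28 ± 0.579 CPM (-0.21 ± 0.30, edgeR adjusted p = 0.586). Without NP 1 Nr4a3 was called as higher (1.68, edgeR adjusted p = 0.0149). The retinoid X receptors, with which NR4A1 can pair, were higher: Rxrg, the gamma form found in muscle, was at 111 ± 6.14 and 42.0 ± 12.7 CPM on the high and the normal phosphate diet (1.399 ± 0.21, edgeR adjusted p = 0.00131). Rxrb (0.68 ± 0.11) and Rxra (0.79 ± 0.15) were called with TMM, and with library size alone (0.20 and 0.32) or on the FPKM scales they were not. Rxra is named after its value was seen.

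Ier2, a small nuclear protein of the immediate early response, varied least among the high phosphate libraries of all members. It had 7.51, 9.58 and 7.01 CPM in HP 1, 2 and 3, against 14.9, 14.3 and 15.8 CPM in NP 1, 2 and 3. Each diet formed a tight group, with a gap between them wider than either. Ier2 fell by 0.90 ± 0.14 on the log2 scale (edgeR adjusted p = 0.00142), to 8.03 ± 1.36 CPM against 15.02 ± 0.718 CPM on the normal phosphate diet (SD, n = 3 each), and was called under all 16 alternatives, at -1.38 to -0.80.

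Atf3, a stress-induced factor of the ATF family that can pair with Jun proteins, varied widely in both diets. It had 26.1, 22.5 and 9.19 CPM in HP 1, 2 and 3, against 23.9, 13.3 and 6.30 CPM in NP 1, 2 and 3. Libraries differed within a diet by 2.84 times on the high and 3.80 times on the normal phosphate diet, and the diets overlapped throughout. Atf3 was not called (0.41 ± 0.57, 95% interval -0.98 to 1.81, edgeR adjusted p = 0.577), and its sign turned with library size alone (-0.065) and on both FPKM scales. Atf4, an upstream activator of Atf3 in the stress response, was called as higher, at 251 ± 6.26 and 156 ± 19.5 CPM on the high and the normal phosphate diet (0.69 ± 0.13, edgeR adjusted p = 0.00325). It was not called under library size scaling (0.22) or on the FPKM scales, and it is named here after its value was seen.

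**Figure D2:**
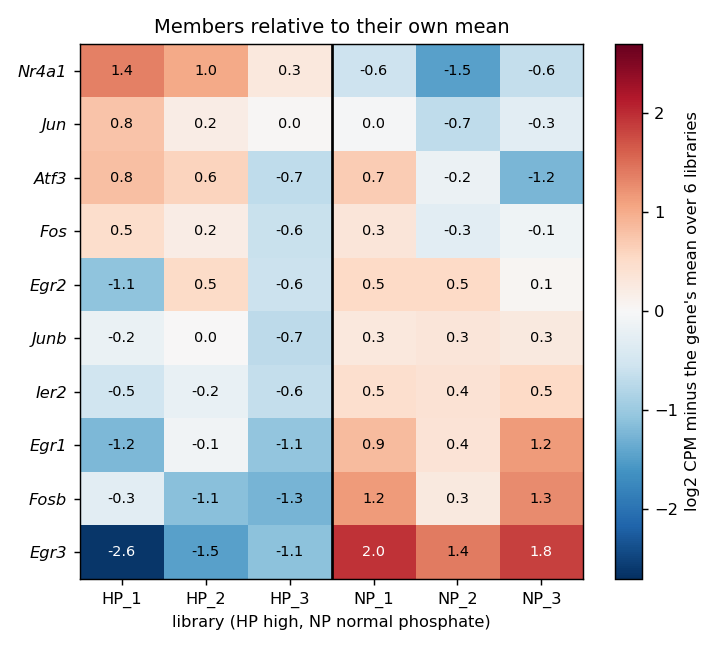
Log2 CPM of each member in each library minus its mean over the 6 libraries (color scale in log2 units), with the high phosphate libraries left of the black line and the normal phosphate libraries right of it. Nr4a1 and Jun are above their mean in all high phosphate libraries, Egr3, Fosb, Egr1 and Ier2 are below it, as is Junb except in HP 2 (0.018), and Atf3 and Fos vary within both diets.

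Within a diet the members did not share one order of libraries. On the high phosphate diet HP 1 was the highest library for 5 members (Fos, Fosb, Jun, Nr4a1 and Atf3) and HP 2 for 4 (Junb, Egr1, Egr2 and Ier2). The same HP 1 was the lowest library for the 3 EGR genes, and HP 3 was the lowest for the other 7 members. On the normal phosphate diet NP 1 was the highest library for 6 members, and NP 2 was the lowest for 7, among them Nr4a1, Jun, Egr1, Egr3 and Fosb. The 5 genes whose log2 CPM over the 6 libraries were most like the mean profile of the 10 members were Piga, Selenbp1, Ddt, Myoz2 and Lsm7, among 13607 genes with at least 1 CPM, with Pearson r of 0.994, 0.982, 0.979, 0.974 and 0.963. Lsm7 was called as lower (-0.57, edgeR adjusted p = 0.0439) and lost that call in 7 of the 16 alternatives, among them without each of HP 1 (-0.61), HP 2 (-0.66), HP 3 (-0.41), NP 1 (-0.40) and NP 3 (-0.64). Piga (-0.11), Selenbp1 (-0.28), Ddt (-0.23) and Myoz2 (-0.41) were not called. Under library size scaling these were called as lower, at -0.59, -0.75, -0.70 and -0.87, and without NP 2 so was Myoz2 (-0.54, edgeR adjusted p = 0.0397). With FPKM pseudocounts of 1 and 0.1, Selenbp1 (-0.70 and -0.75), Ddt (-0.64 and -0.66) and Myoz2 (-0.87 and -0.88) were called as lower too. Piga was called as lower with the pseudocount of 0.1 (-1.01, limma adjusted p = 0.0449). These values of r describe 6 libraries that fall into 2 diets and were picked as the highest of many.

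Per kilobase of exon, the order of the members differed between the diets. On the high phosphate diet Nr4a1 came first at 67.1 ± 23.3 CPM per kb, ahead of Jun at 38.3 ± 10.7, although their libraries overlapped. Atf3 (8.94 ± 4.14), Junb (5.92 ± 1.44), Ier2 (5.28 ± 0.895), Fos (4.65 ± 1.63) and Egr1 (2.17 ± 0.975 CPM per kb) followed, with overlap between neighbours in this run. Jun and Atf3 did not overlap, nor did Egr1 and Egr2. Egr2 (0.591 ± 0.352), Fosb (0.101 ± 0.0397) and Egr3 (0.0420 ± 0.0194 CPM per kb) were the lowest, with no overlap between neighbours. The order of Fosb and Egr3 rests on few counts there: 20, 10 and 9 for Fosb and 2, 4 and 5 for Egr3 in HP 1, 2 and 3. On the normal phosphate diet Jun (23.9 ± 5.27) and Nr4a1 (19.4 ± 5.98 CPM per kb) led and overlapped. They were followed by Ier2 (9.87 ± 0.472), Junb (8.66 ± 0.237), Atf3 (6.74 ± 4.13), Egr1 (6.26 ± 1.67) and Fos (4.37 ± 1.01 CPM per kb), and the lowest were Egr2 (0.905 ± 0.168), Egr3 (0.430 ± 0.0823) and Fosb (0.350 ± 0.117 CPM per kb). There Nr4a1 and Ier2, Ier2 and Junb, Fos and Egr2, and Egr2 and Egr3 did not overlap, and the other neighbours did. Nr4a1 and Jun together made up 81.6, 75.8 and 79.8% of the members' summed CPM per kb in HP 1, 2 and 3, against 54.8, 47.6 and 56.9% in NP 1, 2 and 3. The other 8 members summed to 31.4, 33.3 and 18.4 CPM per kb in HP 1, 2 and 3, against 43.3, 34.2 and 35.3 in NP 1, 2 and 3. The summed level of the 10 was thus carried mainly by Nr4a1 and Jun on the high phosphate diet.

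**Figure D3:**
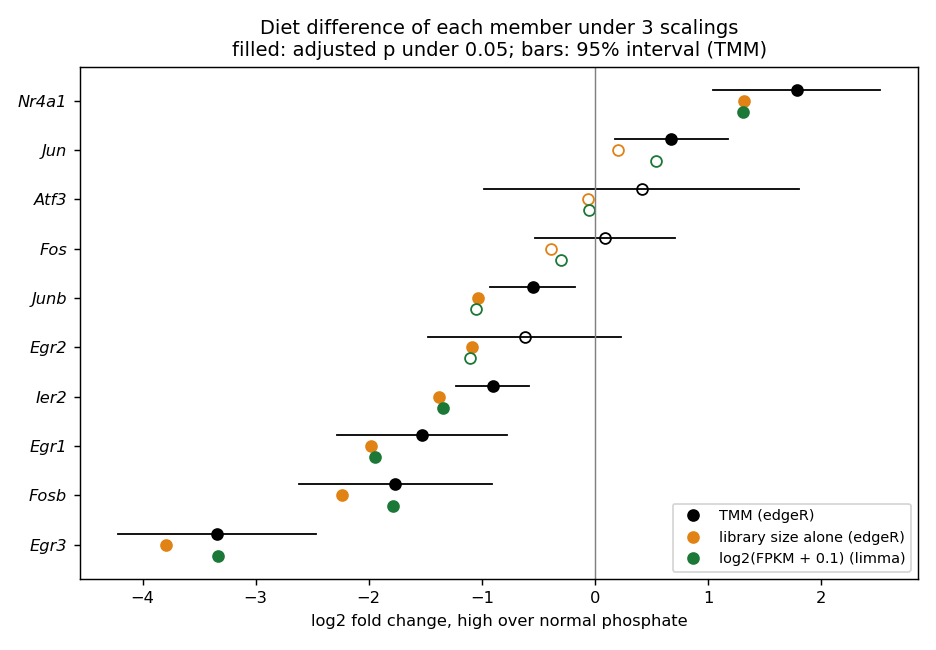
Log2 fold change of each member, high over normal phosphate (horizontal axis), under TMM scaling (black, with the 95% interval as a bar), library size alone (orange) and the deposited FPKM values as log2(FPKM + 0.1) (green). Filled points had an adjusted p under 0.05. Nr4a1 stays above 0 and Egr3, Fosb, Egr1 and Ier2 stay below it, called each time, while Jun is called with TMM scaling only and Fos and Atf3 change sign.

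The authors' FPKM values did not follow the counts equally well for all members. The ratio of FPKM to CPM by library size differed between the 6 libraries by 1.03-fold for Nr4a1 and Ier2 and by 1.05-fold for Egr1. It differed by 3.29-fold for Egr3, 3.18-fold for Fosb and 3.04-fold for Junb. For Junb the deposited FPKM was 3.06 in NP 1, against 11.3 and 9.53 in NP 2 and 3, from 515, 580 and 533 counts. For Fosb it was 1.24 in NP 3, against 0.342 and 0.225 in NP 1 and 2, and for Egr3 2.92 in NP 3, against 1.39 and 1.07. The FPKM of Junb in NP 1 thus lay with those of the high phosphate libraries (3.33, 3.43 and 3.13), where the counts did not.

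Other genes of the immediate early response moved both ways as well. Of 41 listed, 40 were tested, and 4 rose and 10 fell, 35.0% called against 49.3% of all genes, with a median of -0.11. Under library size scaling 4 were higher and 21 lower, at a median of -0.58. Over all 15347 genes that scaling gave 878 higher and 7886 lower, at a median of -0.49. On the FPKM scales 3 were higher and 15 or 17 lower (pseudocounts of 1 and 0.1). With the pseudocount of 1 the median over all genes was -0.29, so the lower calls there do not describe this list alone. Per1, a clock gene that glucocorticoids and CREB induce, was at 86.5 ± 14.5 CPM on the high and 30.4 ± 7.50 CPM on the normal phosphate diet (1.51 ± 0.20, edgeR adjusted p = 0.000809). Gadd45g, a stress gene of growth arrest (1.61 ± 0.22), Ppp1r15a, which reverses the stress block on translation (1.06 ± 0.18), and Cebpb (1.21 ± 0.22), named after its value was seen, rose as well. Cebpb was not called on the FPKM scales (1.17 and 1.23). Socs3, the feedback inhibitor of cytokine signalling, fell by 1.52 ± 0.13 on the log2 scale, to 4.71 ± 0.363 CPM on the high against 13.5 ± 0.795 CPM on the normal phosphate diet (edgeR adjusted p = 0.000208). Btg1, an antiproliferative factor (-1.12 ± 0.14), and Zfp36l2, which speeds the decay of AU-rich mRNA (-0.89 ± 0.11), fell too. Dusp1, the MAP kinase phosphatase of this response, was at 103 ± 15.4 and 72.2 ± 20.0 CPM on the high and the normal phosphate diet and was not called (0.51 ± 0.21, edgeR adjusted p = 0.0707). It was called as higher by DESeq2 (0.54, DESeq2 adjusted p = 0.0375), with the replicate number as a block (0.54, edgeR adjusted p = 0.0348) and without NP 1 (0.67, edgeR adjusted p = 0.0382).

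Of 26 kinases and factors that act upstream of immediate early promoters, 11 rose and 4 fell, 57.7% called against 49.3% of all genes (23.0% higher and 26.3% lower), with a median of 0.24 against -0.016 over all genes. Under library size scaling there were 3 higher and 11 lower and the median was -0.24. Over all 15347 genes that scaling gave 878 higher and 7886 lower, at a median of -0.49. Srf, the factor that binds the serum response element of Fos, Egr1 and other members, was at 106 ± 6.87 CPM on the high and 59.5 ± 9.53 CPM on the normal phosphate diet (0.83 ± 0.13, edgeR adjusted p = 0.00137). It was higher in the libraries in which Egr1, Egr3 and Fosb were lower, and its call held under all 16 alternatives (0.36 to 0.96). The kinases Mapk14, or p38 alpha (0.83 ± 0.13), and Map2k2, or MEK2 (0.92 ± 0.15), were higher under all 16 alternatives too. Atf1, a relative of CREB (0.60 ± 0.11), missed the threshold under library size scaling (0.13) and on both FPKM scales. The 4 that fell, named after their values were seen, were the ELK-family factor Elk3 (-0.93 ± 0.19), the kinases Mapk7 (-0.78 ± 0.17) and Mapk3 (-0.52 ± 0.12), and Creb1 (-0.32 ± 0.09), which lost its call without HP 1 (-0.27, edgeR adjusted p = 0.0754) or HP 2 (-0.30, edgeR adjusted p = 0.0654), with no filter on low counts and on the FPKM scales. Of 16 dimer partners and corepressors, 5 rose and 6 fell, 68.8% called against 49.3% of all genes (23.0% higher and 26.3% lower), with a median of -0.27. There were 1 higher and 10 lower under library size scaling, at a median of -0.76 against -0.49 over all genes. On either FPKM scale there were 1 higher and 9 lower. The median over all genes was -0.29 there with the pseudocount of 1, so these lower calls do not describe this list alone. Batf3, a partner of Jun proteins in immune cells, fell by 1.75 ± 0.28 on the log2 scale, to 0.656 ± 0.0812 CPM on the high against 2.22 ± 0.436 CPM on the normal phosphate diet. Maf (0.95 ± 0.22), which rose with TMM, was not called under library size scaling (0.47) or on the FPKM scales, and is named after its value was seen.

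**Figure D4:**
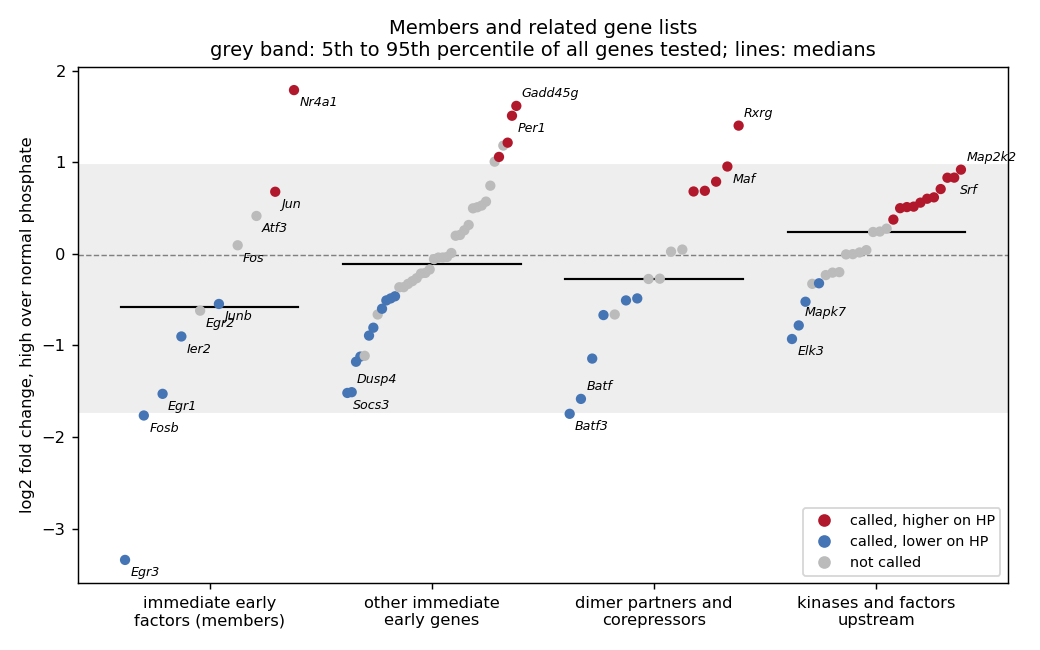
Log2 fold change, high over normal phosphate (vertical axis), of each gene tested among the 10 members, the 40 other immediate early genes, the 16 dimer partners and corepressors and the 26 upstream kinases and factors, in rising order within a list, with TMM scaling. Red and blue points were called as higher and lower, black lines are list medians, the dashed line is the median of all 15347 genes and the grey band their 5th to 95th percentile (-1.72 to 0.97). Egr3, Fosb and Nr4a1 lie outside the band among the members.

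Several cell types other than muscle fibres express immediate early genes. Markers of some of them, not all, were lower in the same high phosphate libraries in which Egr1, Egr3, Fosb, Ier2 and Junb were lower. Over all genes tested 26.3% were called as lower and 23.0% as higher. All 6 endothelial markers tested fell, with a sum of 397 to 554 CPM on the high and 700 to 841 CPM on the normal phosphate diet. All 6 fibroblast markers (1902 to 2154 against 3773 to 8182 CPM), all 6 macrophage markers (284 to 407 against 853 to 1593 CPM) and all 6 white adipocyte markers (216 to 419 against 1281 to 1910 CPM) fell too. The 5 B cell and the 5 T cell markers fell as well, with sums of 0.962 to 1.83 and 0.571 to 1.32 CPM on the high and of 9.004 to 56.2 and 7.28 to 25.8 CPM on the normal phosphate diet. Neutrophil markers were low in both diets (3.69 to 5.96 and 8.64 to 10.9 CPM), 2 of 4 tested fell and Ly6g had no counts. Of the 5 smooth muscle and pericyte markers 1 fell (698 to 992 against 1144 to 1275 CPM), of the 5 Schwann cell markers 1 fell (216 to 319 against 237 to 296 CPM), and of the 5 erythroid markers 0 changed (114 to 727 against 215 to 391 CPM). Muscle fibre markers rose, 5 of 8, in the libraries in which Nr4a1 and Jun were higher. The part of these cell types in the members' differences was not tested. In whole muscle, fewer cells of a type and less RNA per cell cannot be told apart.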

How the data were processed

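RNA was measured in gastrocnemius of mice on a high or a normal phosphate diet, 3 libraries each, grouped and numbered from the sample titles. Total RNA was extracted with TRIzol, per the labels' protocols. The authors deposited raw counts for each Ensembl gene and, for the same libraries, FPKM values. The submitters' processing notes list Trim Galore 0.4.1, HISAT2 2.0.1, featureCounts 1.4.6, DESeq2 1.6.3 and GRCm38, with no roles. How FPKM was computed and whether counting used strand is not given in the sources used here.

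The members and gene lists were chosen with earlier results of these data known. Counts were tested with edgeR 4.0.16 (R 4.3.3): TMM, filterByExpr, robust quasi-likelihood F test, adjusted p under 0.05. The SE is the log2 fold change divided by the square root of F, which is approximate. Libraries of one diet correlated at 0.981 to 0.989, and chi-square over degrees of freedom between their counts was 18.1 to 58.0, far above sampling noise, so none was a duplicate. The alternatives, 16 settings in all, were 3 other scalings, 2 other filters, the replicate number as a block, DESeq2 1.42.0, limma-voom (limma 3.58.1), limma on the log2 FPKM with pseudocounts of 1 and 0.1, and leaving out each of 6 libraries. The edgeR step was tested on simulated data. Named were the members, up to 6, 4 and 4 called genes by smallest p from the related, upstream and partner lists, 7 fixed genes, and the 5 genes most like the members' mean z score; genes that stood among 5 or fewer called in a direction, and Fosl1, were added after their values were seen. Exon lengths and overlaps came from GENCODE M21 (GRCm38), with all annotated exons of a gene merged. No 50-base stretch of a member's transcripts occurred in those of another gene.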

Additional observations from a re-analysis of the deposited data

How the results depend on the processing

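Nr4a1, Egr3 and Ier2 kept their direction and call under all 16 alternatives, Egr1 and Fosb under 15, Junb under 11 and Jun under 10. Of the 10 members 7 were called, against 4 on the log2(FPKM + 1) scale (1 higher, 3 lower). Leaving out 1 library gave 5 to 8 called members and medians of -0.86 to -0.41. Such settings can also change how many of all genes are called, so these counts do not describe the members alone. The members' median of -0.58 was -1.06 under library size scaling and -1.08 as log2(FPKM + 0.1). Over all genes the median was -0.016 with TMM and -0.49 under library size scaling. The 14 calls among other immediate early genes were 25 with library size alone. Over all 15347 genes there were 8764 calls with library size alone, against 7563 with TMM. Of the upstream list 15 were called, against 9 on either FPKM scale, which can also change how many of all genes are called. Fos was -0.38 under library size scaling, -0.24 and -0.30 with FPKM pseudocounts of 1 and 0.1, and ran from -0.13 to 0.36 without single libraries. Atf3 was -0.065 under library size scaling and -0.053 and -0.050 with the same pseudocounts. Nr4a2 ran from -0.50 to 0.019 without single libraries. The cause was not tested in any of these. Same-numbered libraries did not deviate together over the genes tested (correlations of -0.021, 0.022 and 0.019, against -0.045 to 0.026 for unlike numbers). With 3 libraries per diet this cannot settle whether the numbers pair them. With the replicate number as a block 8 members were called (3 higher, 5 lower) and 7328 genes in all, and Atf3 was called as higher (0.47, edgeR adjusted p = 0.0333). Egr3, with 2 to 5 counts per high phosphate library, is the member whose level depth limits most.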
